A study of Rattus norvegicus with 9 samples.

Results

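ASRNV is a class of probes on a rat microarray for N6-methyladenosine (m6A) in RNA, defined by probe names that begin with these 5 letters. Of the 41186 transcript probes on the array, 5519 carried such a name, and all of them were taken. The other classes were ASRN6AP1B with 28015 probes, ASRN6AP1A with 4138, ASRN6SM with 2505, uc. with 959 and 50 probes named by an accession. The sources used here do not say which kind of RNA the ASRNV probes measure, and they pair no ASRNV probe with a gene, a position or a sequence. The second name column of the scans repeated the probe name for all 5519 members. Single members are therefore given by their IDs.

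RNA from the cortex of 9 male rats (Rattus norvegicus) was hybridized, with 1 array per rat and 3 rats in each of 3 groups. The labels describe the control rats as normal, and the methods add that they were operated on without occlusion of the middle cerebral artery. The model rats had cerebral ischemia-reperfusion injury, produced with a thread that blocked and then released that artery, and were sampled on day 7. The BHD rats carried the same injury, received Buyang Huanwu Decoction and were also sampled on day 7. No group combined BHD with uninjured cortex, so BHD could be compared only on top of injury. The tissue was the cortex on the ischemic side, and fewer cells of a type and less RNA per cell cannot be told apart in such bulk samples.

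m6A is a methyl mark on adenosines inside mRNAs and long noncoding RNAs. It is placed by a writer complex around METTL3 and METTL14 and can be removed by the erasers FTO and ALKBH5, and reader proteins that bind it affect splicing, stability and translation of the RNA. Brain RNA is rich in the mark, and changes of m6A have been studied after stroke. Buyang Huanwu Decoction is a traditional herbal formula given after stroke. On these arrays an anti-m6A antibody divided the RNA of each rat into an immunoprecipitated part (IP), which was labelled with Cy5, and a supernatant part (Sup), which was labelled with Cy3. The log2(IP/Sup) of a probe is higher where more of its RNA was in the IP, so it tracks the methylated share of a transcript, while the IP and Sup signals also follow the amount of RNA. The dyes were not swapped, so a probe's own dye effect stays in its baseline ratio but is shared by the groups compared.

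Each array held 44393 features, and between 0.12% and 2.3% of the spots of transcript probes were marked as outliers and left out on an array. No spot was saturated. Median IP intensity lay between 53 and 83.5 and median Sup intensity between 48 and 60, with the lowest IP median on BHD replicate 3. By their scan times, slide 1 held all controls plus model replicate 1, slide 2 held the other two model arrays and BHD replicates 1 and 2, and slide 3 held BHD replicate 3 only. Of 21 cell type markers listed for cortex, 2 could be matched to a probe by name. Whether the others have a probe on the array could not be told. The 2 matched, the neuronal markers Map2 and Dlg4, were detected in IP and in Sup on each of the 9 arrays.

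The ASRNV names were regular. Every name had 15 characters, with the same 2 characters after the letters ASRNV and the same 2 characters at the end. Read as serial numbers, the 8 digits after the letters ran from 20026777 to 20037275, so the members filled 5519 of 10499 numbers in that span. Each member had 1 spot, and no spread between spots of a probe could be measured. Members with neighbouring numbers were only slightly alike. Spearman's rho of the average signal between members 1 number apart was 0.13 over 3405 pairs, against 0.02 over 2991 pairs that were 100 numbers apart. For the baseline log2(IP/Sup) it was 0.18 over 398 pairs and -0.06 over 316 pairs. These are descriptions across probes, which share all arrays and are not independent.

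ASRNV probes were detected less often than most other probes. A probe was counted as detected where the scanner software marked its spot as well above background. In the IP channel 48.1%, 51.6% and 56.8% of the members were detected on the control arrays, 66.5%, 54.8% and 56% on the model arrays and 57.6%, 62.9% and 51.2% on the BHD arrays. In the Sup channel the shares were 38.3%, 33.8% and 44.2% in control, 49.1%, 40.6% and 42.3% in model and 48.9%, 50% and 43.1% in BHD cortex. All other probes together reached 73.9% to 85.1% in IP and 61.2% to 76.2% in Sup, so no array's ASRNV share entered the range of the others. By class, ASRN6AP1A came closest with 54.7% to 69.9% in IP and 42.4% to 57.5% in Sup. The uc. class alone lay below ASRNV on every array, with 35.1% to 50.5% in IP and 21.7% to 34.3% in Sup.

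**Figure D1:**
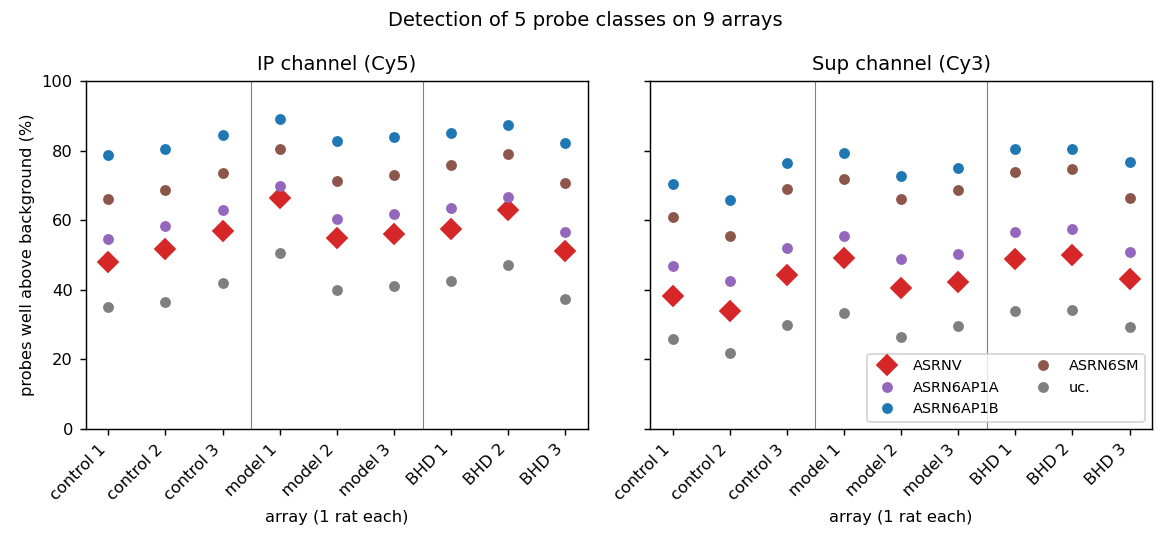
Percent of probes well above background (y axis) on each of the 9 arrays (x axis) for 5 probe classes, in the IP channel on the left and the Sup channel on the right. On every array the ASRNV diamonds lie below ASRN6AP1A and above uc., and all classes shift together from array to array.

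The IP channel detected more members than the Sup channel on every array, by 8.07 to 17.8 percentage points. For all other probes that gap was 4.96 to 14.7 points. The mean IP detection of the class was 52.2% ± 4.36 (SD, n = 3) in control, 59.1% ± 6.43 in model and 57.2% ± 5.89 in BHD cortex, and the ranges of the 3 groups overlapped. The mean Sup detection was 38.8% ± 5.17, 44% ± 4.49 and 47.3% ± 3.7, again with overlapping ranges. Other probes moved alike, from 66.3% in control to 71.2% in model and 74.6% in BHD for Sup, so the order of the group means was not particular to ASRNV.

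Over the 9 arrays the members fell into 3 large sets. There were 1523 members (27.6%) detected in neither channel on any array, 1616 (29.3%) detected in both channels on all arrays, and 2380 (43.1%) detected on some arrays or in 1 channel. Among all other probes 11.7% were never detected and 58.8% were always detected in both channels. A small set of 62 members (1.12%) was above background in IP on all 9 arrays and in Sup on none, a pattern seen for 0.718% of the others. The opposite pattern, Sup on all arrays and IP on none, was seen for 1 member. The deposited table of processed signals listed 3388 members (61.4%), against 82.6% of the other probes. Each listed member was detected on at least 3 of the 9 arrays, and 72 members detected as often were not in it.

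A few members were detected on all 3 arrays of 1 group and on none of another. Between control and model, 30 members (0.544%) were gained in IP in the model, where 0.337% of all probes were, and 0 were lost. In Sup 18 members (0.326%) were gained, also against 0.337% of all probes, and 0 were lost, where 0.00243% of all probes were. Between model and BHD, 10 members (0.181%) were lost in IP with BHD against 0.0923% of all probes, and 3 (0.0544%) were gained against 0.0558%. In Sup 26 members (0.471%) were gained against 0.483%, and 0 were lost against 0.0291%. The Sup shares were thus close to those of all probes. The IP gains in the model and the IP losses with BHD were more frequent among members than among all probes, with few probes behind either. Some of the lost members were also among the gained ones, and both counts use the same 3 model arrays, so they are not separate results. Patterns between never and always detected were more common among members, at 43.1% against 29.5% of the other probes. The part of such patterns in these counts was not tested. IP detection over all probes was also highest on model replicate 1 (82.6%) and lowest among the model and BHD arrays on BHD replicate 3 (73.8%), and the part of each array's total detection in these counts was not tested.

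The ASRNV probes were also dim. Their median average log2 signal on the control arrays was 6.08, against 6.77 for all other probes and 6.19 for ASRN6AP1A. All probes were divided into 4 equal bins of average signal. The dimmest bin held 46.5% of the members and the brightest bin 8.7%, where 27.5% of the other probes lay. Values below are therefore also given beside probes of the same brightness or detection.

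In control cortex the typical ASRNV probe had equal IP and Sup. Over the 2924 members that were detected in either channel on 2 or more of the 3 controls, the median of the mean log2(IP/Sup) was 0.02, against 0.03 for the 27445 other probes. The difference was -0.01, 0.002 and 0 on control replicates 1, 2 and 3, and -0.004 for their mean, so its sign was not the same on the arrays. These medians are set by the normalization, which centres each array at every brightness. The spread around the median was narrower for the class. Its lower and upper quartiles were -0.19 and 0.19, against -0.29 and 0.34 for the other probes. Its 5th and 95th percentiles were -1.11 and 0.81, against -1.43 and 1.41.

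Fewer members than other probes lay far from 0 on either side, and the gap was larger on the side of high IP. A log2(IP/Sup) of at least 1, or at least 2 times as much signal in IP as in Sup, was reached by 108 members (3.69%) and by 9.03% of the other probes, a gap of -5.33 percentage points. The gap was -5.95, -5.1 and -4.93 points on the 3 control arrays. On the low side, 173 members (5.92%) and 8.6% of the others lay at or below -1. Among probes detected in both channels on all 3 control arrays, 97 of 1721 members (5.64%) and 11% of 21122 others reached 1, and 164 members (9.53%) and 10.9% of the others lay at or below -1. ASRN6AP1A resembled ASRNV there, with 5.89% at or above 1 and 8.29% at or below -1. ASRN6AP1B had 12.1% and 10.7%, and ASRN6SM had 1.49% and 18.6%. The values of single members ran from -4.68 to 3.4.

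**Figure D2:**
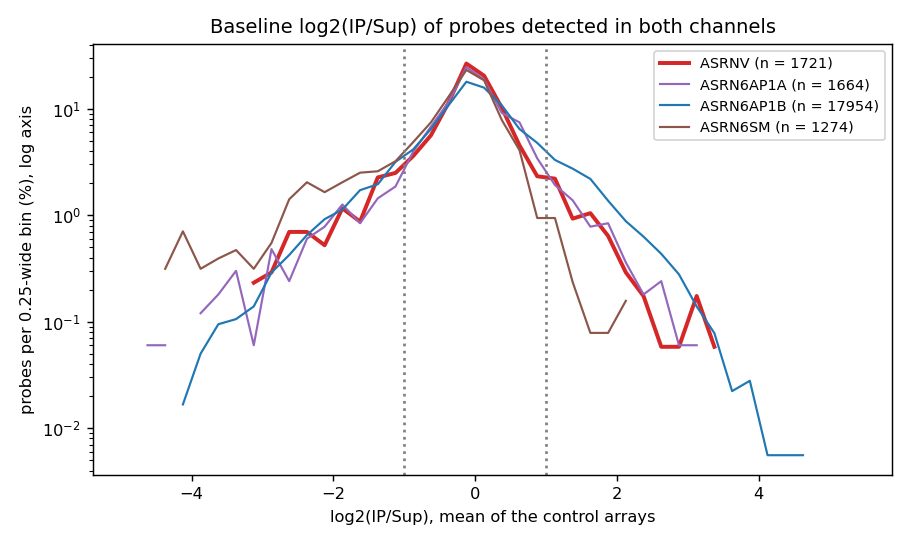
Share of probes (y axis, log scale, percent per bin of log2(IP/Sup)) by mean log2(IP/Sup) over the 3 control arrays (x axis), for probes detected in both channels on all 3 control arrays. Dotted lines mark -1 and 1. The ASRNV line lies near that of ASRN6AP1A. To the right of 1, where 5.64% of ASRNV and 12.1% of ASRN6AP1B are, it lies below ASRN6AP1B except in the bin that starts at 3 (0.174% and 0.139%), and above ASRN6SM wherever it has members.

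Part of that gap went with brightness. Among probes detected in both channels, 66 of 474 members in the brightest bin (13.9%) reached a log2(IP/Sup) of 1, against 19.3% of the others in that bin. In the next bin it was 31 of 856 members (3.62%) against 5.27%, and in the bin below that 0 of 391 members and 0% of the others. At or below -1 lay 23.2% of the members and 17.8% of the other probes in the brightest bin, so there the members leaned to the Sup side. Over probes detected in either channel, the median of the gaps within the 4 bins was -1.02 points in the share at or above 1. The dim bins, where few or no probes of either set reach 1, pull that median toward no gap. It therefore does not measure how much of the gap went with brightness. With the scanner software's own processed signals, which are not offset, the gap over the same probes was -0.926 points, but among probes detected in both channels it was -5.74.

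The shares moved from array to array while their order held. Over the probes detected in both channels in control cortex, the share of members at or above 1 was 5.72%, 5.16% and 6.38% on the control arrays. It was 5.63%, 4.44% and 4.18% on the model arrays and 5.26%, 4.34% and 3.35% on the BHD arrays. The other probes had 11.9%, 10.4% and 11.3% in control, 12%, 9.31% and 8.31% in model and 11.6%, 9.41% and 8.73% in BHD. Members lay lower than the others on all 9 arrays, and the model and BHD ranges overlapped in both sets. The share of members at or below -1 ran from 5.55% on BHD replicate 3 to 11.6% on model replicate 1.

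Few members kept a ratio beyond 1 or -1 on every array. Of 1564 members with values and detection in both channels on all 9 arrays, 25 (1.6%) were at or above 1 on every array, against 4.52% of the other probes, and 62 (3.96%) were at or below -1 on every array, against 5.33%. Near 0 the sign was not stable. Of the members, 698 (44.6%) were above 0 on some arrays and below it on others, against 37.5% of the other probes. The median range of a member over the 9 arrays was 0.48 on the log2 scale, and the median SD within a group was 0.14, against 0.53 and 0.16 for the others. The median SD between the 3 group means was 0.1. ASRN6AP1A was close to ASRNV, with 1.96% at or above 1 and 3.73% at or below -1 on every array. In that class 42% changed sign, the median range was 0.49 and the median SD within a group 0.15.

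Between model and control few members were called with the main processing. A probe was called where its fold change was at least 1.5 and its unadjusted limma p under 0.05, the thresholds of the study's methods, in a fit over 31640 probes of every class, of which 3206 were members. For log2(IP/Sup), 2 members (0.0624%) were called higher in the model, where 0.161% of all probes were, and 7 (0.218%) were called lower, where 0.569% were. For the IP signal 6 members (0.187%) were called higher against 0.695% of all probes, and 11 (0.343%) lower against 0.787%. For the Sup signal 7 members (0.218%) were called higher against 1.12%, and 7 (0.218%) lower against 0.303%. In total 31 of the 3206 members were called for at least 1 of the 3 measures. A like count over all probes is not given here. For each measure and direction the share of members was below that of all probes.

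No member passed after Benjamini-Hochberg adjustment in limma, and the smallest adjusted p of a member was 0.685 for log2(IP/Sup), 0.501 for IP and 0.571 for Sup. At an unadjusted limma p under 0.05 without a fold limit there were 140 members (4.37%) for log2(IP/Sup), 147 (4.59%) for IP and 206 (6.43%) for Sup, beside 5.08%, 6.48% and 8.2% of all probes. The median change over the tested members was 0.007 in log2(IP/Sup), -0.006 in IP and -0.01 in Sup, beside 0.001, -0.02 and -0.02 over all tested probes.

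The dim members gave no calls for the ratio. With the main processing all 9 calls lay in the 2 brighter bins, 4 in the third and 5 in the brightest. In the brightest bin 5 of 473 members (1.06%) were called for log2(IP/Sup), against 1.52% of all probes there, 10 (2.11%) for IP against 3.42%, and 7 (1.48%) for Sup against 2.4%. Of the 2 members with a higher ratio, 1 had a called lower Sup signal and 0 had a called higher IP signal. Of the 7 with a lower ratio, 2 had a called lower IP signal and 1 a called higher Sup signal, and for 4 neither signal was called. Over all probes, 45.1% of the higher ratios had a called higher IP signal, 25.5% a called lower Sup signal and 29.4% neither. Among the lower ratios it was 19.4% with a called lower IP signal, 22.2% with a called higher Sup signal and 58.3% with neither.

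ASRNV2002835511 was the only called member with a higher ratio that met the naming rule. That rule took only called members whose 2 compared groups did not overlap. For each named probe this separation was therefore fixed by the choice and is no added result. Its log2(IP/Sup) was -0.6, -0.5 and -0.49 in control, 0.29, 0.22 and -0.2 in model and 0.17, 0.24 and -0.24 in BHD cortex. All 3 model arrays lay above all 3 control arrays, with BHD replicates 1 and 2 inside the range of the model arrays and BHD replicate 3 just below it. The model minus control difference was 0.63 ± 0.14 (SE) with a limma adjusted p of 0.685, and BHD minus model was -0.05 ± 0.16. Its IP signal hardly differed, with means of 6.53 in control and 6.55 in model on the log2 scale. Its Sup signal was 7.12, 6.99 and 7.06 in control and 6.3, 6.35 and 6.69 in model, lower by 0.61 on average. The higher ratio thus lay with less Sup signal. The ratio difference was 0.5 with median centring, 0.43 with no normalization within arrays, 0.54 without model replicate 1 and 0.58 without model replicate 2, each under the fold limit.

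ASRNV2002948211 had the lowest change in ratio among the called members that met the rule. It was strongly enriched in the IP of all rats, with a log2(IP/Sup) of 3.27, 3.15 and 2.91 in control, 2.83, 2.37 and 1.97 in model and 3.08, 2.55 and 2.57 in BHD cortex. As the rule required, the control and model values did not overlap, though model replicate 1 came close to control replicate 3. The model minus control difference was -0.72 ± 0.22 (SE, limma adjusted p = 0.685) and BHD minus model was 0.34 ± 0.22, which was not called. Its IP signal differed by -0.96 and was called lower, while the Sup difference of -0.24 was not called. On slide 1 alone, where model replicate 1 met the 3 controls, the ratio differed by -0.28 and was not called, and without model replicate 3 it differed by -0.51, under the fold limit.

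ASRNV2003575211 was called lower in IP signal. Its IP signal was 8.93, 8.79 and 8.98 in control, 7.75, 8.08 and 8.43 in model and 7.59, 7.72 and 7.65 in BHD cortex. The 3 groups did not overlap, and the BHD rats were lowest. The model minus control difference was -0.82 ± 0.18 (SE, limma adjusted p = 0.642), and BHD minus model was -0.43 ± 0.16, below the fold limit. Its log2(IP/Sup) was 0.85 ± 0.13 (SD, n = 3) in control, 0.44 ± 0.05 in model and 0.24 ± 0.13 in BHD, and the model minus control differences of -0.41 in the ratio and -0.41 in Sup were not called. No member called higher in IP met the naming rule.

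These counts depended on single arrays and on the processing. The ratio calls numbered 20 when control replicate 2 was left out, 23 for control replicate 3, 63 for model replicate 1 and 4 for model replicate 2, and 22 with the replicate number as a block. Without control replicate 3 there were 45 IP calls (1.42%, 3.8%) and 49 Sup calls (1.54%, 2.83%). Without model replicate 1 there were 26 (0.817%, 2.11%) and 33 (1.04%, 1.99%), and without control replicate 1 there were 9 Sup calls (0.282%, 0.896%). With the scanner software's processed signals 257 members were called for the ratio, 101 higher and 156 lower, 153 for IP, 69 of them higher, and 222 for Sup, 123 of them higher. That was 8.02% of the members and 5.08% of all probes for the ratio, the opposite order to the main result, and 3.9% and 3.81% among probes detected in both channels on all 6 arrays. Median centring gave 0 higher and 20 lower for the ratio, 5 and 20 for IP and 10 and 3 for Sup, and no normalization within arrays gave 0 and 32, 3 and 25, and 11 and 1. The deposited table gave 26 and 480, 69 and 81, and 384 and 25, with medians over all probes of -0.29 in the ratio, -0.05 in IP and 0.23 in Sup, so the split of the calls by direction changed with the scaling. Without normalization within arrays the median ratio change over all probes was -0.13, and over the members it was -0.09.

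Between BHD and model more members differed, and most of them had lower signals with BHD. The fit held 32819 probes, 3392 of them members, and the 9 arrays shared 1 estimate of the spread. The model arrays enter both comparisons, so an array that is high in 1 comparison lowers the other. For the IP signal 77 members (2.27%) were called lower, where 3.7% of all probes were, and 15 (0.442%) were called higher against 1.61%. For the Sup signal 91 members (2.68%) were called lower against 3.39%, and 3 (0.0884%) higher against 0.201%. For log2(IP/Sup) 36 members (1.06%) were called higher against 1.91%, and 22 (0.649%) lower against 1.24%. Called members for at least 1 measure numbered 170 of 3392, and a like count over all probes is not given here. For each measure and direction the share of members was again below that of all probes.

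**Figure D3:**
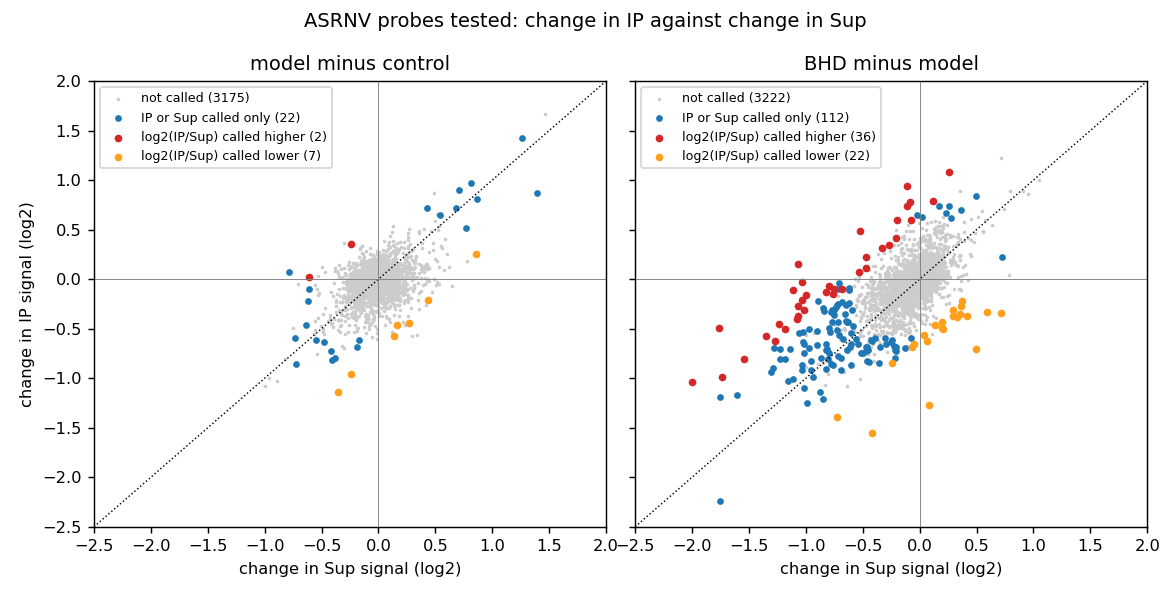
Change in IP signal (y axis, log2) against change in Sup signal (x axis, log2) of every tested ASRNV probe, for model minus control on the left and BHD minus model on the right; the dotted line marks equal change, and colours mark which measure was called. On the right most called probes lie in the lower left, 77 members being called lower in IP and 91 in Sup, and probes with a called ratio lie off the line on both sides.

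No member passed the Benjamini-Hochberg adjustment in limma here either. The smallest adjusted p of a member was 0.304 for log2(IP/Sup), 0.152 for IP and 0.265 for Sup. At an unadjusted limma p under 0.05 without a fold limit there were 391 members (11.5%) for log2(IP/Sup), 460 (13.6%) for IP and 322 (9.49%) for Sup, beside 15.3%, 16.7% and 10.2% of all probes. The median change over the tested members was 0.01 in log2(IP/Sup), -0.03 in IP and -0.04 in Sup, beside 0.007, -0.009 and -0.01 over all tested probes. The lower tail was longer in the signals, as 5% of the members differed by -0.48 or less in Sup while the upper 5% began at 0.19.

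Called lower signals were found among the bright members, whose log2 differences the offset shrinks less than those of dim members. In the brightest bin 72 of 477 members were called lower in IP and 5 higher, and 77 were called lower in Sup and 3 higher. Their called share in that bin was 16.1% for IP against 14.8% of all probes there, and 16.8% for Sup against 10.3%. For log2(IP/Sup) the share was 8.18% against 7.8%. The third bin gave 13 calls in IP (1.43% against 2.21%) and 13 in Sup (1.43% against 1.2%), and the 2 dimmer bins gave 2 in IP and 1 in Sup. Among probes with both channels detected throughout the 6 arrays, the shares were 4.91% of members against 7.12% of all probes in IP, 4.91% against 4.78% in Sup and 3.16% against 4.22% for log2(IP/Sup).

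The called members combined in several ways. There were 39 members (1.15%) called lower in both IP and Sup, where 1.61% of all probes were. Of these 39 members, 35 had no called ratio. Of the 36 members with a higher ratio, 19 had a called lower Sup signal, 7 had a called higher IP signal, and 10 had neither signal called. Of the 22 with a lower ratio, 7 had a called lower IP signal, 2 a called higher Sup signal, and 13 neither. Over all probes, 35.8% of the higher ratios had a called lower Sup signal, 32.2% a called higher IP signal and 32.2% neither. Among the lower ratios it was 26.5% with a called lower IP signal, 8.6% with a called higher Sup signal and 65.4% with neither. ASRN6AP1A, the class most like ASRNV in brightness, had 148 of its 162 called probes lower in IP and 126 of its 131 lower in Sup.

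ASRNV2003490111 had the largest lower IP signal of the class with BHD. Its IP signal was 10.19, 10.82 and 10.28 in control, 10.8, 11.07 and 11.59 in model and 9.18, 9.12 and 8.43 in BHD cortex. All BHD arrays lay below all other arrays, where the naming rule required separation from the model arrays only. BHD minus model was -2.24 ± 0.28 (SE, limma adjusted p = 0.152). Its Sup signal was 10.35, 10.39 and 10.65 in model and 9.07, 8.89 and 8.18 in BHD, a difference of -1.75 ± 0.26. Both signals were lower, and its log2(IP/Sup) differed by -0.49, under the fold limit. Between model and control its IP signal was called higher by 0.72 ± 0.25 and its Sup difference of 0.43 was not called. The IP difference with BHD stayed between -2.63 and -2 under 20 alternatives and was called in all except the one that needs an adjusted p.

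ASRNV2003047611 had the highest change in ratio with BHD. Its log2(IP/Sup) was -0.73, -0.5 and -0.39 in control, -1.53, -1.29 and -0.73 in model and 0.08, -0.02 and 0.18 in BHD cortex. The BHD arrays lay above all others, and model replicate 3 lay with control replicate 1. BHD minus model was 1.26 ± 0.19 (SE, limma adjusted p = 0.304), and model minus control was -0.64 ± 0.21 and called lower. The higher ratio lay with less Sup signal, at 9.96, 9.37 and 7.95 in model and 7.62, 7.13 and 7.26 in BHD. That was a called difference of -1.76 ± 0.46. Its IP difference of -0.5 was not called and went against the rise in ratio. The ratio difference lay between 1.04 and 1.55 under the alternatives and was lost only with the adjusted p.

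ASRNV2002962011 had the lowest change in ratio with BHD. Its log2(IP/Sup) was -1.52, 0.21 and 0.44 in control, 0.02, 0.88 and 0.81 in model and -0.86, -0.96 and -0.52 in BHD cortex. As the naming rule required, model and BHD did not overlap. The control range took in all BHD arrays and model replicate 1, but not model replicates 2 and 3. The control SD was 1.07. BHD minus model was -1.35 ± 0.47 (SE, limma adjusted p = 0.304). Here the IP signal moved, with 10.08, 10.77 and 10.83 in model and 9.39, 9.69 and 8.79 in BHD, a called difference of -1.27 ± 0.32, while Sup differed by 0.08. The ratio call was lost without model replicate 2 (-1.2), without model replicate 3 (-1.23) and without BHD replicate 2 (-1.26).

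ASRNV2002973211 had the largest higher IP signal with BHD among the called members that met the naming rule. Its IP signal was 8.69, 7.97 and 7.59 in control, 7.91, 7.22 and 7.43 in model and 8.84, 8.4 and 8.15 in BHD cortex. As the rule required, the BHD arrays lay above the model arrays, and control replicate 1 lay among the BHD arrays. BHD minus model was 0.94 ± 0.31 (SE, limma adjusted p = 0.249), its ratio was called higher by 1.06 ± 0.43, and its Sup difference was -0.12. The IP call was lost without model replicate 2 (0.79) and without BHD replicate 1 (0.75).

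**Figure D4:**
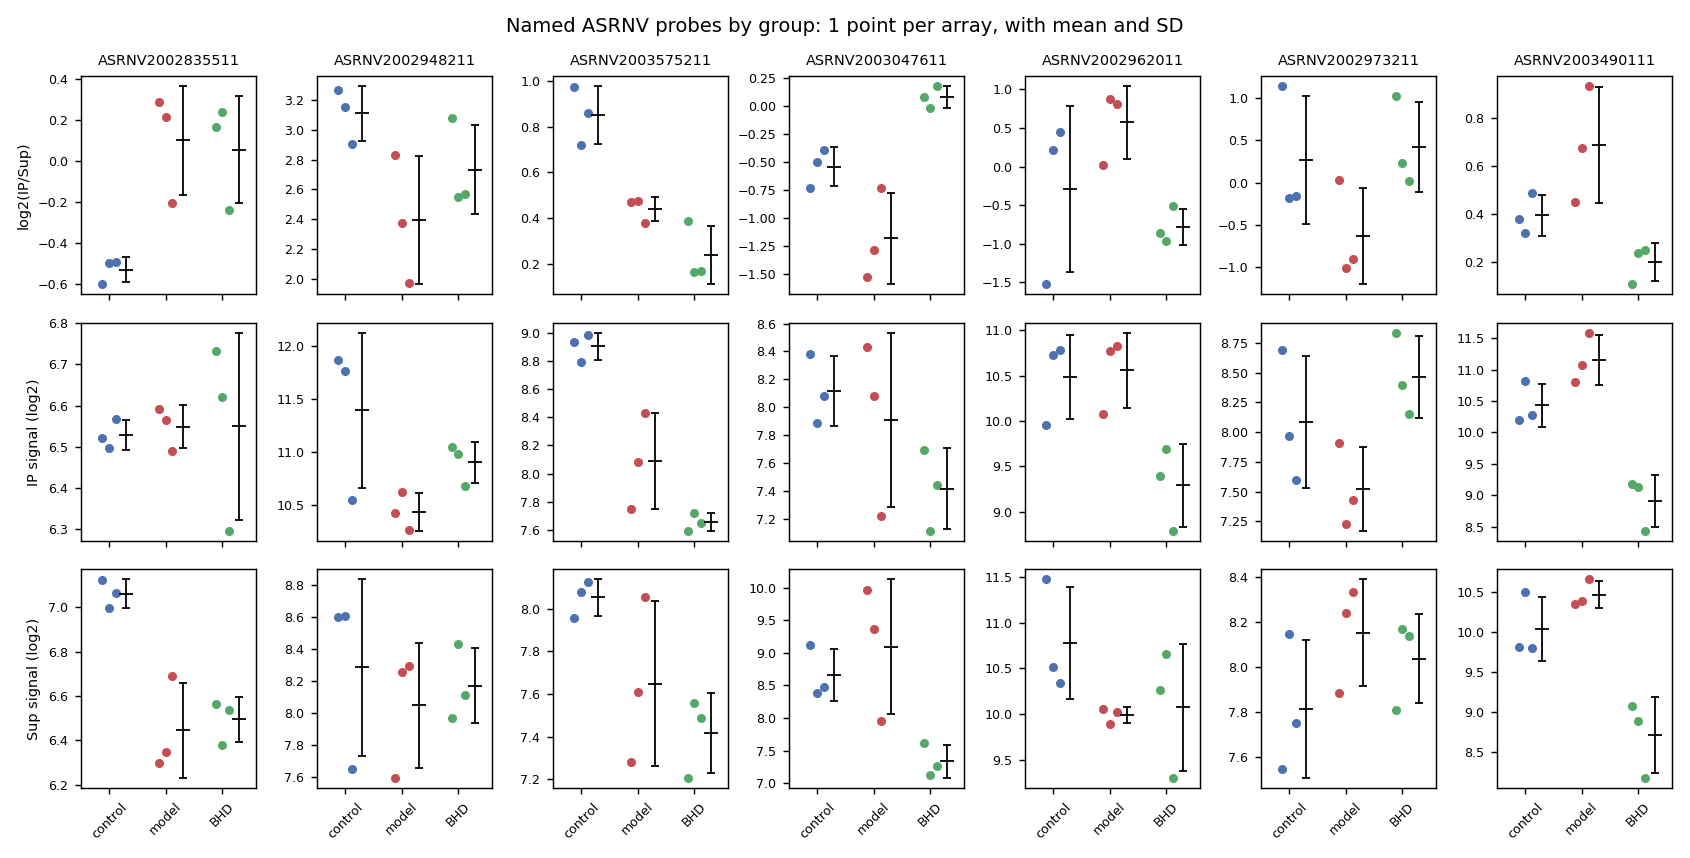
log2(IP/Sup), IP signal and Sup signal on the log2 scale (rows, y axes with separate ranges that do not start at 0) of the 7 named ASRNV probes (columns) in control, model and BHD cortex. Coloured points are single arrays and black bars the mean and SD of 3 arrays; ASRNV2003490111 shows the BHD arrays below all others in IP, and ASRNV2003047611 shows them above all others in log2(IP/Sup).

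The counts with BHD also leaned on single arrays and on the slide. Without BHD replicate 3, alone on its slide, 46 members (1.36%, against 2.87% of all probes) were called for IP and 50 (1.47%, 1.85%) for Sup. Without BHD replicate 1 the counts were 156 (4.6%, 6.61%) and 177 (5.22%, 6.45%). The IP counts were 148 (4.37%, 7.5%) without BHD replicate 2, 149 (4.43%, 7.56%) without model replicate 1 and 57 (1.69%, 2.73%) without model replicate 2. Without model replicate 1 or 2 the ratio counts were 98 (2.91%, 6.98%) and 18 (0.533%, 1.36%). On slide 2 alone, with 2 model and 2 BHD arrays, 122 members (3.59%, against 7.32% of all probes) were called for IP, 87 of them lower. For Sup it was 45 (1.33%, 2.1%), 38 of them lower. Higher and lower calls split by scaling as well. Processed signals gave 208 higher and 206 lower for the ratio, 115 and 374 for IP and 104 and 286 for Sup, and the deposited table, whose medians over all probes were -0.19 in IP and -0.19 in Sup, gave 202 and 168, 67 and 417, and 65 and 369. Median centring gave 81 and 7, 20 and 45, and 0 and 124, and no normalization within arrays gave 94 and 2, 23 and 41, and 0 and 130. Lower calls outnumbered higher ones in IP and in Sup under each of these settings. With processed signals 14.4% of the members and 13.4% of all probes were called for IP, and 11.5% and 8.47% for Sup, again the opposite order.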

How the data were processed

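RNA of 9 rats was measured on 2-colour arrays, 1 per rat. The authors deposited Agilent Feature Extraction 11.0.1.1 scans, whose median spot and background intensity values are not normalized and whose processed intensity carries that software's own background and dye correction, beside its flags. The authors also deposited log2 signals of 32860 probes, normalized in GeneSpring per the study's methods. Each column equals the log2 processed intensity minus 1 constant, within 4.9e-09.

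Median intensities were background-corrected (normexp, offset 50), control and outlier spots were left out, arrays were normalized by loess, and IP and Sup signals by Aquantile between arrays. One spot on model replicate 2, of class ASRN6AP1A, with a Sup intensity of 836 and a local background of 12585, was left out before normexp, since it raised the lowest percentile of that array's corrected Sup values from 53.4 to 205. This was chosen after seeing the data. R 4.3.3, limma 3.58.1, jsonlite 2.0.0, version 1.17.8 of data.table, Python 3.11.15, pandas 2.3.3 and matplotlib 3.10.9 were used, and the fit was tested on simulated data.

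Tests used limma over probes that either channel detected on 3 or more of the 6 arrays compared, with 2 or more values per group, fitting 6 arrays for model against control and all 9 for BHD against model. A call required both a 1.5-fold change and an unadjusted p under 0.05. For each comparison, the probe with the largest change in each direction was named for log2(IP/Sup) and for IP, among called members with non-overlapping groups and detection in both channels on all 6 arrays. Groups came from the labels. Members, lists and tests were chosen with earlier results of these data known. The number of arrays limits the precision.

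Pairing by replicate number was checked. Around the group means of log2(IP/Sup), arrays of equal number correlated with r of 0.56, 0.39 and 0.25 between control and model and 0.58, 0.26 and 0.41 between model and BHD. Each was above 0.1, so the numbers were used as a block in an alternative fit, while the main tests were unpaired. Neither the labels nor the methods say what a number shares. Some arrays of unequal number correlated too: model 3 had 0.31 with control 2, above its 0.25 with control 3, and model 2 had 0.29 with control 3. The alternatives were other background corrections, normalizations, filters, fits and blocks, the deposited table, and leaving out each replicate. No column of the deposited table was left unread. The study's other assays were not analysed here.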

Additional observations from a re-analysis of the deposited data

How the results depend on the processing

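With the flag for positive and significant signal, mean detection of the members over the 9 arrays was 78.9% in IP and 69.2% in Sup in place of 56.2% and 43.4%. The members' baseline median minus that of the other probes was 0.033 with processed signals, -0.092 with median centring and with no normalization, 0.039 with the deposited table, -0.036 where both channels were detected, -0.069 there with processed signals and -0.016 within bins of brightness, and -0.002 to 0.004 without 1 control array, so its sign depended on the setting. The gap in the share at or above 1 was negative throughout. It was -0.926 points with processed signals, -8.52 with median centring, -10.4 with no normalization and -0.617 with the deposited table. Without 1 control array it was -5.31 to -4.78. The median over bins was -1.02, which the dim bins pull toward no gap.

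For model against control, in the order log2(IP/Sup), IP and Sup, the main counts were 9, 17 and 14. Processed signals gave 257, 153 and 222, and 66, 60 and 64 where both channels were detected. The deposited table gave 506, 150 and 409. These were 15.9%, 4.72% and 12.9% of the members, beside 14.5%, 4.84% and 11.5% of all probes. Median centring gave 20 for the ratio, and no normalization gave 32 for the ratio and 28 for IP. The slide as a block gave 5, 27 and 8, and slide 1 alone gave 4 and 33 for the ratio and IP. The adjusted p gave 0 for each. Without 1 array the counts ran from 4 to 63, 14 to 45 and 9 to 49. The called share of members was below that of all probes each time.

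For BHD against model the main counts were 58, 92 and 94. Processed signals gave 414, 489 and 390, and 196, 293 and 192 where both channels were detected. The deposited table gave 370, 484 and 434. These were 11.1%, 14.5% and 13% of the members, beside 8.78%, 12.5% and 9.84% of all probes. Median centring gave 88 and no normalization 96 for the ratio. The slide as a block gave 100 for the ratio and 40 for Sup, 33 and 28 of them among the main calls. Slide 2 alone gave 125 and 45. The adjusted p gave 0 for each. Without 1 array the counts ran from 18 to 98, 46 to 156 and 50 to 177. Here too the called share of members was below that of all probes each time. The causes were not tested.

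With the replicate block, which follows the pairing, the counts were 22, 22 and 17 for model against control and 65, 97 and 94 for BHD against model. The block lost no call of a named probe and moved only the ratio count of model against control by over 1.5 times.

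The spot with the high local background, kept as an alternative chosen after seeing the data, gave 11, 16 and 17 and then 41, 99 and 73 calls. The combination of processed signals with detection in both channels and the gap in the share at or above 1 were also chosen after seeing the data. No named probe changed direction under the 20 alternatives. With 1523 members never above background and 1 spot per member, differences of dim members were not measurable here.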
